A study of Mus musculus with 16 samples.

Results

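Mouse embryonic stem cells (ESCs) that lack Dgcr8 were compared with wild-type ESCs while both were held under inhibition of mTOR, a culture called paused. The comparison used 8 of the 16 libraries of the series, the 4 labelled Dgcr8 knockout (KO), paused and the 4 labelled wild type, paused, all taken at day 2 of treatment. It was described over the 18195 autosomal genes among 18965 genes tested, with the position of each gene noted. The other 8 libraries, KO and wild-type ESCs in normal culture without the inhibitor, served to show where the genotype difference was not the same in paused cells. Each sample held 800000 ESCs, and poly(A)-selected RNA was sequenced. The name and dose of the inhibitor, the part of Dgcr8 that was deleted, the strain, and whether the KO cells are 1 clone are not given in the sources used here. Nor do the labels say whether replicates were separate cultures, so p-values measure the spread between these libraries, which may be technical.

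Dgcr8 is an RNA-binding protein that holds primary microRNA transcripts for the nuclease Drosha. Together they release the hairpins that Dicer then cuts into mature microRNAs, which guide Argonaute proteins to sites in the 3′ UTRs of messenger RNAs and lower their stability and translation. In mouse ESCs the most abundant families are miR-290/295 and miR-302, which share a seed and are known for promoting rapid passage through G1. mTOR is the kinase that couples nutrients to protein synthesis and growth, and its inhibition slows ESCs into a state that resembles the diapaused blastocyst.

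Dgcr8 itself (ENSMUSG00000022718.12, chr16:18253948-18289246, GRCm38, minus strand) was higher in the KO libraries. It stood at 187, 176, 187 and 173 CPM (counts scaled by library size) in KO replicates 1 to 4 and at 50.7, 53.2, 56.2 and 55.3 CPM in wild-type replicates 1 to 4. All KO libraries lay above all wild-type ones, by 1.75 ± 0.04 on the log2 scale (SE, n = 4 per group, adjusted p = 6.9e-16 by edgeR's quasi-likelihood test). Since the deleted part is not stated, this gene-level value checks nothing about the labels. Its transcripts did not move together. The coding transcript Dgcr8-201 stood at 55.7, 53.2, 53.9 and 50.1 TPM (scaled by transcript length as well) in KO cells and at 15.1, 16.6, 16.7 and 17.1 TPM in wild type, while Dgcr8-206, annotated as a processed transcript, stood at 46.2, 44.5, 45.4 and 42.9 TPM against 2.99, 2.22, 3.03 and 1.40 TPM. Dgcr8-209 was listed at 0 in all 4 KO libraries and at 0.444 to 0.624 TPM in wild type.

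The paused libraries held 88377380 to 116646028 estimated counts. Markers of ESCs were present in both groups, with a summed level of 7485 to 8270 TPM in KO and 9397 to 9760 TPM in wild type. Markers of other cells summed to far less, with 110 to 113 against 52.0 to 70.5 TPM for mesoderm, of which Bmp4 contributed most, 146 to 154 against 124 to 136 TPM for neuroectoderm, 103 to 117 against 87.4 to 100.2 TPM for trophoblast, 13.2 to 15.9 against 20.8 to 30.5 TPM for endoderm and 33.6 to 36.2 against 21.98 to 23.1 TPM for fibroblasts, whose collagen gene Col1a1 had a mean of 0.34 and 0.23 TPM. Bmp4 lies in the raised stretch of chromosome 14, and outside the shifted regions 3 of 9 mesoderm markers were higher and 5 lower (median -0.97). Of the 10 fibroblast markers tested 6 were lower and 3 higher (median -0.97), and Thy1, at 22.7 against 11.2 TPM, carried most of their sum. Their part in the results was not tested, and in bulk samples fewer cells of a type and less RNA per cell cannot be told apart. KO libraries detected fewer genes, 22650 ± 265 against 23659 ± 94.1 (SD, n = 4 each; exact two-sided permutation p = 0.0286, the smallest that 4 against 4 libraries allow, adjusted p = 0.0476 over the library measures), and a smaller share of their counts came from pseudogenes, 3.69 ± 0.335% against 4.54 ± 0.163%. For a number of genes given below, wild-type replicates fell into the pairs 1 with 2 and 3 with 4, and KO replicates into 1 with 3 and 2 with 4.

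Loss of Dgcr8 in paused cells was accompanied by differences in most measured genes. Of 18195 autosomal genes, 11909 (65.5%) passed an adjusted p of 0.05, with 5690 (31.3%) higher and 6219 (34.2%) lower in KO cells. Differences of 1 or more on the log2 scale were found for 1193 genes (6.56%) that were higher and 2090 (11.5%) that were lower. For 11574 of the 18195 genes tested (63.6%), called or not, the 4 KO libraries did not overlap the 4 wild-type ones. The median log2 fold change of all autosomal genes was -0.03, so both directions were nearly in balance by number, and more of the larger differences were toward lower levels in KO. That lean of the larger differences did not hold among well-measured genes: refitted on genes at a mean log2 CPM of 3 or above, 366 were higher and 300 lower by 1 or more. Calls of any size were more often lower in that refit. Over all 18965 genes, sex chromosomes included, 65.4% were called, 30.8% higher and 34.5% lower, with 6.46% and 11.8% different by 1 or more. Because so many genes passed, counts in the gene groups below are to be read against these shares.

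Part of the difference followed position along the chromosomes. On chromosome 1, 478 of 528 protein-coding genes at a mean log2 CPM of 3 or above were higher and 21 were lower in KO cells, with a median log2 fold change of 0.61, against 40.3% higher and 33.9% lower among all 9176 such autosomal genes. The median shift of chromosome 1 was 0.564 to 0.590 in each of the 4 KO libraries and -0.008 to 0.011 in the wild-type ones, so every KO library carried it to about the same extent. In normal culture, which shares no library with this comparison, the median was 0.67. The median of every other chromosome but 14 lay between -0.07 and 0.05, and that of chromosome 14 was 0.31.

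Cut into 223 windows of 10 Mb with at least 10 genes each, the autosomes held 23 windows whose median departed by 0.4 or more from that of all 9176 genes, 19 upward and 4 downward. Of these, 17 lay on chromosome 1, with shifts of 0.461 to 0.766. The other 6 fell on chromosomes 14, 6 and 10 in neighbouring pairs. Between 40 and 60 Mb of chromosome 14, 23 of 26 and 79 of 84 genes were higher, with shifts of 0.943 and 0.831. From 80 to 100 Mb of chromosome 6, 51 of 54 and 25 of 27 genes were lower, with shifts of -1.03 and -0.924, and from 50 to 70 Mb of chromosome 10, 20 of 21 and 35 of 38 genes were lower, with shifts of -0.952 and -0.899. With windows of 5 Mb, 33 of 318 were noted, all 24 of chromosome 1 and 9 on chromosomes 6, 10 and 14. With all autosomal genes tested, weakly expressed and non-coding ones included, 25 of 252 windows were noted, among them 10 of 20 on chromosome 1, the same 6 on chromosomes 6, 10 and 14, and 9 others on chromosomes 4, 5, 6, 7, 10, 12, 13 and 14. Window medians in paused and in normal culture had a Pearson correlation of 0.911 across the 223 windows, given as a description.

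**Figure D1:**
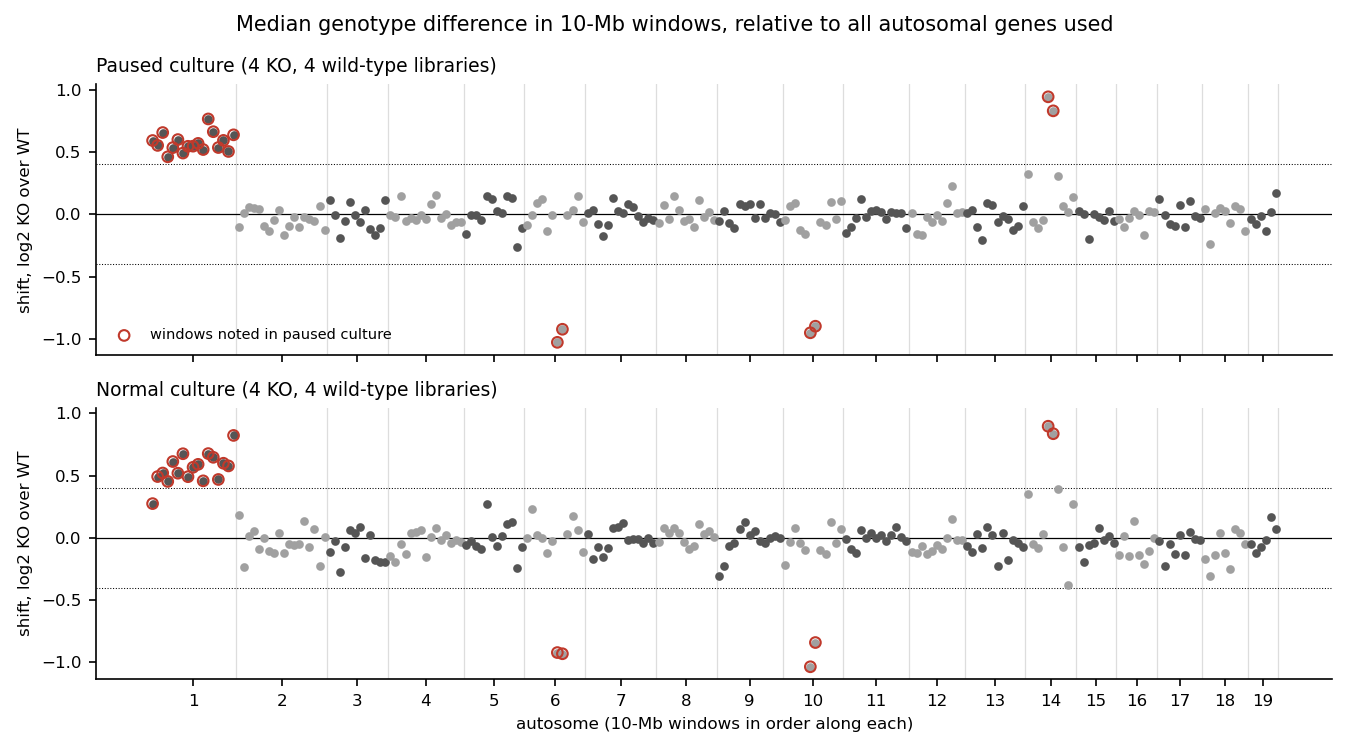
Median log2 fold change of protein-coding genes in 10-Mb windows along the autosomes (horizontal axis, chromosome order), relative to the median of all autosomal genes used, for KO against wild type in paused culture (upper panel) and in normal culture (lower panel). Each point is 1 window, red circles mark the 23 windows noted in paused culture and dotted lines stand at 0.4 and -0.4; the raised chromosome 1, the raised pair on chromosome 14 and the lowered pairs on chromosomes 6 and 10 appear in both panels.

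A running median over 11 genes placed the edges of these stretches more closely. On chromosome 14 it ran from chr14:43925390-63193856 (Gm8113 to Neil2, 19.3 Mb), where 113 of 123 genes were higher and the median was 0.88. The stretch chr6:78395623-100671157 (Reg2 to Shq1, 22.3 Mb) had 78 of 85 genes lower and a median of -0.93, and chr10:45577829-72674964 (Hace1 to Zwint, 27.1 Mb) had 63 of 68 lower and a median of -0.88. Shorter raised runs lay at chr10:127197067-127747349, with 13 genes and a median of 0.55, and at chr15:100498012-101274795 (Tfcp2 to Nr4a1), with 11 genes and a median of 0.91. DNA copy number was not measured here, and the cause of these stretches was not tested. Some genes went against their surroundings. Mthfd2, a mitochondrial folate enzyme on chromosome 6, and Ddit4, an inhibitor of mTOR signalling on chromosome 10, were higher in KO cells, and the Nodal inhibitors Lefty1 and Lefty2 on chromosome 1 were lower.

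Away from chromosome 1 and the 6 other windows, 16592 autosomal genes were tested, of which 4881 (29.4%) were higher and 5812 (35.0%) lower, 949 and 1876 of them by 1 or more. Their median log2 fold change was -0.04. Among the 1603 genes inside, 809 were higher and 407 lower, with a median of 0.32. For lists below whose counts these regions move, the count outside them is given as well. The short raised runs on chromosomes 10 and 15, and edges of the longer stretches beyond the windows, count as outside there.

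Genes of ATF4, the transcription factor of the amino acid and integrated stress response, were higher throughout. All 20 autosomal members of this list were higher in paused KO cells, with a median log2 fold change of 1.89 against -0.03 for all autosomal genes. Outside the shifted regions 18 of 18 were higher, with a median of 1.84. Ddit3 and Shmt2 are among these 18 but lie in the short raised run on chromosome 10. Chac1, which degrades glutathione (ENSMUSG00000027313.3, chr2:119351229-119354381), was among the largest rises. It stood at 84.9, 104, 89.1 and 109 CPM in KO replicates 1 to 4 and at 2.66, 2.01, 2.37 and 2.01 CPM in wild type. That is a 42.7-fold difference of means, or 5.42 ± 0.13 on the log2 scale (SE, n = 4 per group, edgeR adjusted p = 8.8e-15), with the groups far apart and KO replicates 2 and 4 above 1 and 3.

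Regulators of the same pathway moved with it. Trib3, a pseudokinase that feeds back on ATF4, stood at 77.0, 102, 81.9 and 110 CPM against 6.47, 5.55, 5.61 and 5.56 CPM, a difference of 4.00 ± 0.13. Atf3, a factor induced by stress, stood at 10.2, 14.5, 10.2 and 13.9 CPM against 0.578, 0.696, 0.609 and 0.764 CPM (4.20 ± 0.14; it lies on the raised chromosome 1). In both genes KO replicates 2 and 4 were again the higher pair, and no KO library overlapped a wild-type one. The log2 fold change of Atf4 itself was 0.67 ± 0.09, that of Cebpb, its dimer partner, 1.90, and that of Nupr1, a stress-induced chromatin protein, 5.80 ± 0.27, from a mean of 1.19 TPM in wild type to 63.2 TPM in KO. Ddit3, which encodes CHOP, stood at 10.8, 13.1, 10.9 and 13.8 CPM against 4.33, 4.60, 5.56 and 5.13 CPM (1.31 ± 0.12), and it lies in the short raised run on chromosome 10.

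Enzymes that make amino acids and 1-carbon units formed the next group. Phgdh, which opens the serine pathway, stood at 294, 371, 288 and 351 CPM in KO and at 48.9, 45.8, 46.6 and 48.1 CPM in wild type (2.78 ± 0.13). Psat1, the second serine enzyme, stood at 405, 491, 406 and 483 against 85.7, 80.3, 84.1 and 84.2 CPM (2.42 ± 0.15), and Psph, the last, differed by 1.2 on the log2 scale. In these enzymes, too, KO replicates 2 and 4 were the higher pair, and the spread within a group was small beside the gap between groups. Asns, which makes asparagine, stood at 917, 1133, 961 and 1137 CPM against 319, 310.4, 276 and 306 CPM (1.78 ± 0.09). Mthfd2 stood at 63.7, 77.8, 65.2 and 79.1 against 19.9, 18.96, 19.5 and 19.01 CPM (1.88 ± 0.07, edgeR adjusted p = 7.8e-13). It is among 5 of 85 genes called higher within the lowered stretch of chromosome 6. Its partners Shmt2 (1.70 ± 0.07) and Aldh1l2 (5.80 ± 0.28, from 0.623 to 17.8 TPM) were also higher.

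Transporters of the list were higher as well. Slc7a11, the cystine carrier, stood at 13.8, 21.1, 13.8 and 19.2 CPM against 6.01, 6.49, 6.78 and 7.21 CPM (1.36 ± 0.13). The neutral amino acid carrier subunits Slc7a5 and Slc3a2 differed by 1.25 ± 0.04 and 0.95 ± 0.04 and the glycine transporter Slc6a9 by 5.05 ± 0.18. Outside the list, Stc2, a secreted glycoprotein, stood at 59.7, 82.1, 57.0 and 76.9 CPM against 2.78, 2.87, 3.25 and 2.70 CPM, a 23.8-fold difference. Pck2, the mitochondrial phosphoenolpyruvate carboxykinase, stood at 161, 195, 156 and 203 CPM against 9.84, 8.62, 8.40 and 8.87 CPM (4.32 ± 0.12), within the raised stretch of chromosome 14. For Slc7a11, Stc2 and Pck2 no KO library overlapped a wild-type one. The neutral amino acid carriers Slc1a4 (3.72 ± 0.09) and Slc1a5 (2.64 ± 0.13) were among the 12 largest rises by the naming rule, as were Vegfa, the vascular growth factor (2.77 ± 0.15), Hrk, a BH3-only activator of apoptosis (4.14 ± 0.12), and Mef2b (4.13 ± 0.16). Slc7a3, an X-linked list member, did not pass (0.09).

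**Figure D2:**
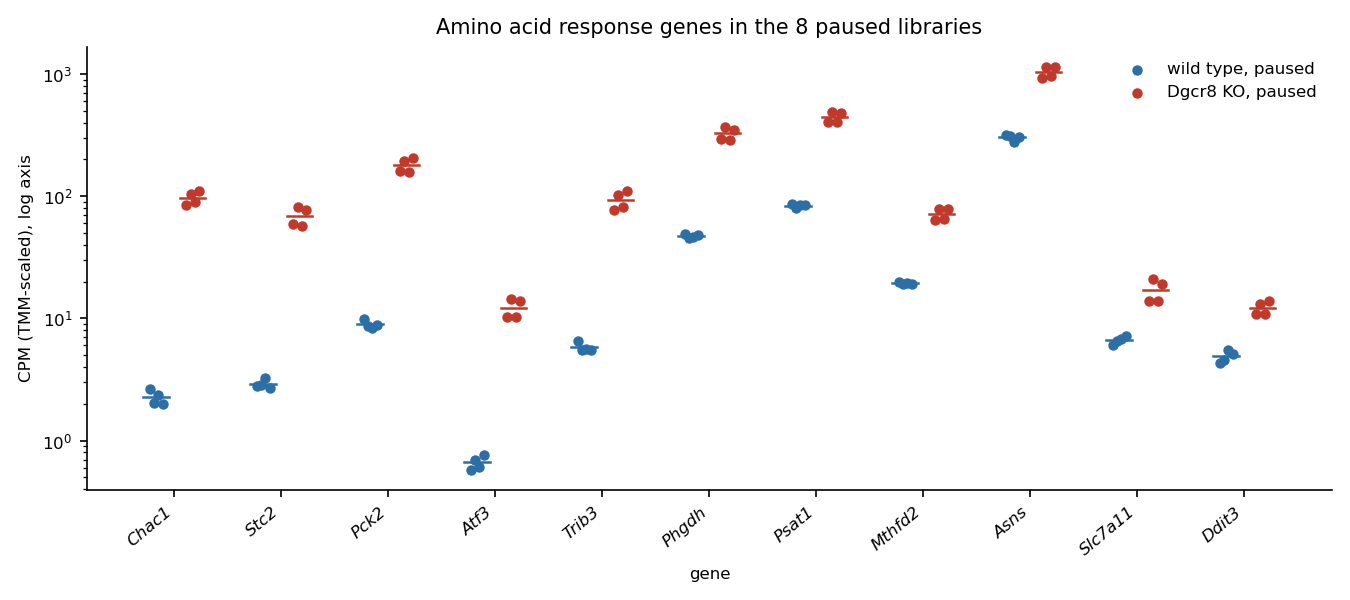
Level of 11 amino acid response genes, of which Stc2 and Pck2 are not on the ATF4 list, in each paused library (CPM scaled by TMM, log axis), with wild-type libraries in blue, KO libraries in red and short lines at group means of 4 libraries. For each gene all 4 red points lie above all 4 blue points; Chac1 goes from 2.01 to 2.66 CPM in wild type to 84.9 to 109 CPM in KO.

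Binding of ATF4 with a C/EBP partner is known for the composite motif TGATGNAA, so the promoters of these genes were searched for these letters on both strands, in 250 bases before to 50 after the start site (RefSeq sequences, GRCm38.p6). It was present in 7 of the 18 list members with a promoter in the table (38.9%), and in 1219 of all 27025 genes with one (4.51%). Among autosomal protein-coding genes tested it was present in 391 of 12447 (3.14%), with 53 of the 830 that were higher by 1 or more (6.39%) and 43 of the 1254 that were lower by as much (3.43%). A match is a description of letters, not of binding. Stretches around the match are shown for Chac1, Nupr1, Asns and Slc7a11, the last with a pair of matches, with the motif in capitals, since these genes span the largest and the smaller rises; the strand is that of the gene.
Chac1 (chr2:119351013-119351092, plus strand): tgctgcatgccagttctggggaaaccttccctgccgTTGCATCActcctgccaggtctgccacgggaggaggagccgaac
Nupr1 (chr7:126625537-126625616, minus strand): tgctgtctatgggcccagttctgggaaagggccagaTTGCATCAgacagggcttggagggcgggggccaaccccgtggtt
Asns (chr6:7693210-7693268, minus strand): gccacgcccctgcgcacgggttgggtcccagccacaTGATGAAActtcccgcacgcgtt
Slc7a11 (chr3:50443636-50443715, minus strand): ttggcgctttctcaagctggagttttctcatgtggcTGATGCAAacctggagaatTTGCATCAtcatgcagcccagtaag
Matches were also present in Trib3, Vldlr and Atf3 of the list. Outside it they were present in Pck2, Hrk, Slc1a4 and Herpud1 (2.38 ± 0.09), an endoplasmic reticulum stress gene.

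The genotype difference was larger in paused than in normal culture for most genes of the ATF4 list. Summed over the 21 listed genes, the median level was 3651 TPM in paused and 3522 TPM in normal KO libraries. In wild type it was 1186 TPM in paused and 1709 TPM in normal culture. Abundant genes weigh most in such a sum, and single genes can differ from it. The difference between the genotype effects in the 2 cultures (the interaction) passed for 7673 of 18195 autosomal genes (42.2%), 3135 of them positive (17.2%), and it was positive for 18 of the 20 list members. In normal culture, where 34.7% of all autosomal genes were higher and 33.5% lower, 16 of the 20 were higher, with a median of 1.37. For Chac1 the normal-culture effect was 2.55 and the interaction 2.87 ± 0.16, for Trib3 2.11 and 1.89 ± 0.17, and for Psat1 0.98 and 1.44. Mthfd2 did not pass in normal culture (0.01, adjusted p = 0.871 by edgeR) and had an interaction of 1.87 ± 0.10, and Ddit3 had a normal-culture effect of -0.00 and an interaction of 1.31. For Slc7a11 the interaction did not pass (-0.09, adjusted p = 0.717 by edgeR).

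Genes of the formative and primed state, which ESCs switch on when they leave naive pluripotency, were lower in paused KO cells. Of 17 autosomal members 14 were lower and 1 higher, with a median of -0.79, and the 1 that was higher, Sall2, lies on the raised stretch of chromosome 14. Outside the shifted regions 14 of 15 were lower and none was higher, with a median of -0.91. Dnmt3b, a de novo DNA methyltransferase of chromosome 2, stood at 69.0, 58.7, 82.0 and 69.2 CPM in KO replicates 1 to 4 and at 336, 338, 473 and 460.1 CPM in wild type. It fell by 2.53 ± 0.14 on the log2 scale (SE, n = 4 per group, edgeR adjusted p = 6.9e-10), and wild-type replicates 3 and 4 were above 1 and 2. Pou3f1, also called Oct6, stood at 4.88, 3.27, 5.49 and 4.06 against 23.0, 22.1, 29.8 and 29.6 CPM (-2.56 ± 0.17).

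Other members fell further or less. Lef1, a transcription factor of the Wnt pathway, had a log2 fold change of -3.91 ± 0.27 (1.09 against 14.7 TPM), Fgf5 of -3.71 ± 0.56, Fgf15 of -2.22 ± 0.19, the cadherin Cdh2 of -1.75, Dnmt3a of -1.20 ± 0.07, Etv4 of -0.91 ± 0.05 and Zic2 of -0.50. Otx2 (0.40 ± 0.20) and Etv5 (-0.08) did not pass. On the X chromosome Sox3 (-2.37) and Pim2 (-1.26) were lower. Esrp1, an epithelial splicing regulator, stood at 10.4, 9.57, 12.9 and 11.4 CPM against 44.3, 45.4, 69.5 and 68.4 CPM (-2.36 ± 0.20), with the same split among the wild-type libraries and no overlap between genotypes.

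Genes of naive pluripotency were divided. Of 21 members 11 were higher and 8 lower, with a median of 0.34; outside the shifted regions 8 of 18 were higher and 8 lower, with a median of -0.00. Nanog stood at 701, 707, 676 and 671 CPM against 439.6, 428.99, 381 and 377 CPM (0.76 ± 0.05), and the orphan receptor gene Esrrb at 1135, 1165, 1169.7 and 1166 CPM against 796, 783, 727 and 734 CPM (0.61 ± 0.04). KO and wild-type libraries were separate for both genes. Tbx3 (1.06 ± 0.05) and Klf4 (0.99 ± 0.04) were also higher, as were Tfcp2l1 (1.55 ± 0.06) and Prdm14 (1.14) on chromosome 1. Pou5f1, which encodes Oct4, was slightly lower at 1630.2 against 1879 TPM (-0.26 ± 0.04), and Dppa3, a maternal factor also known as Stella, fell by 3.44 ± 0.29. Zfp42 (0.07) and Fgf4 (-0.08) did not pass.

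**Figure D3:**
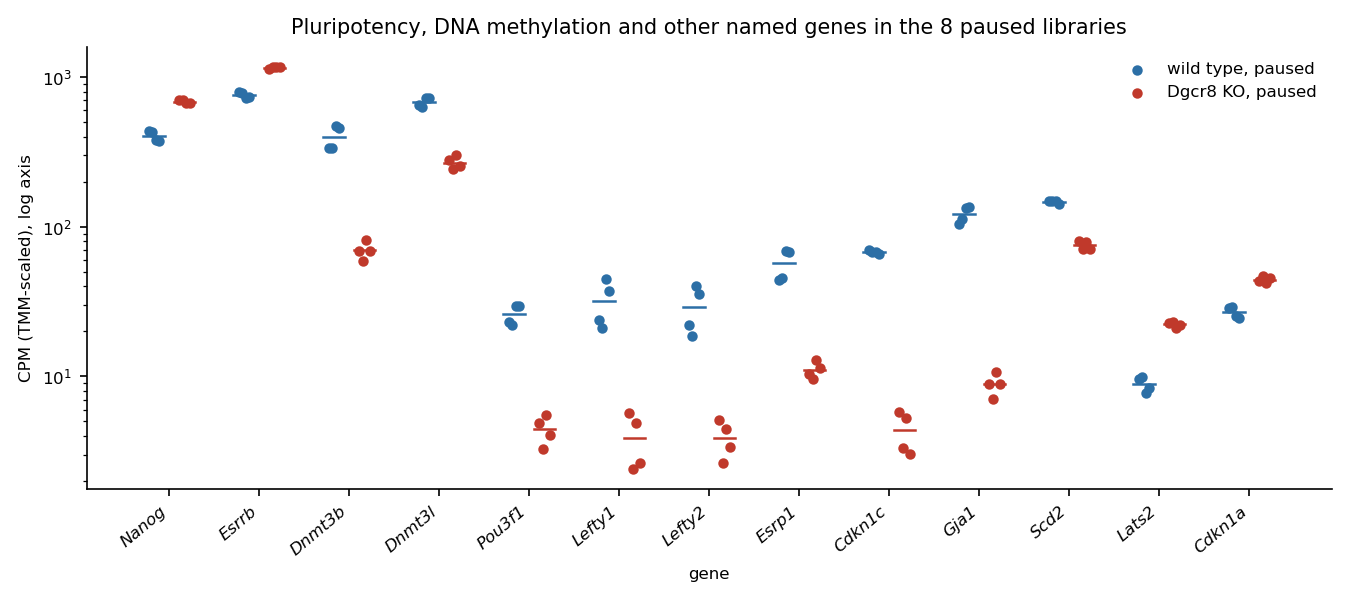
Level of 13 genes of pluripotency, DNA methylation, Nodal signalling, splicing and growth control in each paused library (CPM scaled by TMM, log axis; wild type in blue, KO in red, short lines at means of 4 libraries). Nanog, Esrrb, Lats2 and Cdkn1a lie higher in KO, the 9 other genes lie lower, and the wild-type points of Lefty1, Lefty2, Dnmt3b and Esrp1 form 2 pairs.

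DNA methylation genes followed in part: 9 of 14 were lower and 5 higher, with a median of -0.31, or 7 and 5 of 12 outside the shifted regions. Besides Dnmt3a and Dnmt3b, the cofactor Dnmt3l was lower, at 278, 243, 301.3 and 253 CPM against 656, 633, 729.6 and 729.6 CPM (-1.35 ± 0.09). The maintenance genes Dnmt1 (-0.20) and Uhrf1 (-0.34) were lower by less, and Uhrf2 (0.63) and the oxidase gene Tet2 (0.37) were higher. Tet1 (-0.91) and Tet3 (-1.26) lie in the lowered stretches of chromosomes 10 and 6. The fall of Dnmt3l was smaller than in normal culture, where it was -2.35 (interaction 1.00), and that of Dnmt3a was not seen there (0.11, interaction -1.30).

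Lefty1 and Lefty2, targets and inhibitors of Nodal, were lower although chromosome 1 was raised. Lefty1 (chr1:180935022-180938400) stood at 5.69, 2.40, 4.85 and 2.63 CPM in KO and at 24.0, 21.02, 44.8 and 37.5 CPM in wild type (-3.04 ± 0.31, edgeR adjusted p = 8.5e-07). Lefty2 stood at 5.10, 2.65, 4.49 and 3.38 CPM against 22.1, 18.7, 40.1 and 35.4 CPM (-2.91 ± 0.29). Both genes were separate between genotypes in spite of a wide spread within each. In normal culture the effect was -0.10 for Lefty1, which did not pass, and 1.54 for Lefty2, and the interactions were -2.94 ± 0.41 and -4.45 ± 0.38. The ligand gene Nodal fell by 1.03 ± 0.05 within the lowered stretch of chromosome 10, and Foxh1, a partner of Smad2, fell by 0.90. The receptor genes Acvr1b (1.35) and Tgfbr2 (1.38), Smad3 (0.95) and the protease gene Furin (1.19) were higher, so the 19 genes of the list held 7 higher and 9 lower, or 7 and 6 of 16 outside the shifted regions.

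Targets of growth factor and Wnt signalling were lower in part. In the FGF/ERK list 18 of 25 were lower and 3 higher (median -0.27), among them the feedback inhibitors Dusp4 (-1.53), Dusp6 (-0.62), Spry1 (-0.82) and Spry2 (-0.71), while Egr1 (0.74) was higher. In the Wnt list, 10 of 22 were lower and 8 higher (10 and 6 of 20 outside the shifted regions), and the target genes Axin2 (-2.03 ± 0.09), Sp5 (-1.81) and T (-1.98) were lower while the coreceptor Lrp5 (1.08) and the ligase Rnf43 (1.82) were higher. Gja1, which encodes the gap junction protein connexin 43, stood at 8.86, 7.07, 10.8 and 8.92 CPM against 104, 113, 133 and 135 CPM, a 13.6-fold difference (-3.77 ± 0.13). It lies in the lowered stretch of chromosome 10, whose median is -0.88.

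Genes of the rare 2-cell-like state, a small fraction of ESCs that express genes of the 2-cell embryo, were lower in paused KO cells in all 16 autosomal cases, and 3 of them had no counts there. The smallest difference was that of Eif1a (-0.13), and outside the shifted regions all 15 genes were lower. Zfp352 had 0 estimated counts in each KO library and 179, 158, 80 and 83 in wild type, at least 174-fold lower against a floor of 3 counts over the group. Tcstv3 had 0 against 73, 76, 50 and 58, at least 89.5-fold lower, and Zscan4b had 0 against 1199, 1319, 590 and 684. Zscan4c had 2, 5, 3 and 3 counts against 5022, 5378, 2749 and 3093, and Zscan4f 0, 12, 12 and 6 against 6895, 7468, 3788 and 3884, with wild-type replicates 1 and 2 above 3 and 4 throughout. Zscan4 genes are near-identical copies that share reads, so which copy was counted is uncertain. Zscan4d summed to 3 counts in KO and 6098 in wild type, a ratio of 2123 (95% counting interval 726 to 10292, which covers counting error only). With such genes at their bound the median of the list was -7.21 on the log2 scale. In normal culture all 16 genes were lower as well, and the interaction was negative for 4 and positive for 1.

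Germline and imprinted genes leaned lower. Of 18 germline genes 11 were lower and 3 higher, with a median of -0.52; Hormad1, a meiotic chromosome protein, had 2.09 TPM in KO and 28.4 TPM in wild type (-3.82 ± 0.14), and Dazl fell by 1.22. Of 28 imprinted genes 16 were lower and 6 higher, with a median of -0.52. The growth inhibitor Cdkn1c stood at 5.82, 3.32, 5.30 and 3.02 CPM in KO and at 70.4, 68.3, 68.0 and 65.8 CPM in wild type, 15.7-fold lower in KO (-3.97 ± 0.20), with the KO libraries in pairs and the wild-type ones close together. Plagl1 (-4.86), Igf2 (-1.61), Phlda2 (-1.77) and Nnat (-2.01) were lower as well, and Nap1l5 had 4 counts in KO against 261. Grb10, an adaptor that restrains insulin signalling, was higher by 2.59 ± 0.24, and Mest by 1.22. Among the 12 largest falls by the naming rule were also Capn3, a calpain protease (2.42 against 30.6 TPM, -3.92 ± 0.13), Enpp3 (4.40 against 43.3 TPM, -3.30 ± 0.21) and the calcium channel gene Ryr3 (-3.13). In normal culture, 11 of the 18 germline genes were lower and 1 higher (median -0.62). Of the 28 imprinted genes, 19 were lower there and 4 higher (median -0.82).

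Cell cycle genes leaned lower. Of 25 G1/S genes 13 were lower and 6 higher (median -0.12), or 12 and 4 of 22 outside the shifted regions. Of 24 G2/M genes 15 were lower and 3 higher (median -0.20), or 14 and 2 of 22 outside. Ccne1, which encodes cyclin E1, fell by 1.39 ± 0.08, Ccnd1 by 0.59 and Pcna by 0.51, while Mcm2 (-1.03) and Cdk1 (-1.30) lie in the lowered stretches of chromosomes 6 and 10. For Ccne1 the effect in normal culture was 0.16 and the interaction -1.55. The inhibitor gene Cdkn1a stood at 43.1, 47.1, 42.2 and 45.3 CPM against 28.8, 29.1, 25.3 and 24.6 CPM (0.72 ± 0.14), and Cdkn1b was higher by 1.08. Securin, Pttg1, went the other way from most G2/M genes (1.39). Lats2, a kinase of the Hippo pathway, stood at 22.8, 23.3, 20.96 and 22.1 CPM against 9.62, 9.92, 7.77 and 8.38 CPM (1.32 ± 0.12) inside the raised stretch of chromosome 14, whose median is 0.88.

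Myc was lower and its relative Mycn was not separable between genotypes. Myc stood at 61.5, 46.4, 69.4 and 52.9 CPM in KO and at 166, 159.6, 173 and 166 CPM in wild type (-1.53 ± 0.15), and its fall was larger than in normal culture, where it was -0.40 (interaction -1.13). Mycn stood at 173, 164, 188 and 175 CPM against 143, 142, 198 and 189 CPM, so the KO values lay between the wild-type pairs (0.06 ± 0.11, adjusted p = 0.646 by edgeR). Genes of ribosome biogenesis were lower in 19 of 30 cases and higher in 7 (median -0.17), with Nhp2 at -0.71 and Nop56 at -0.35. Outside the shifted regions 18 of 25 were lower and 3 higher (median -0.21), which leaves out Ncl, Nop58, Wdr12, Ddx21 and Ddx18. Ribosomal protein genes differed little, with a median of -0.05: 13 of 40 were lower, 4 higher and 23 did not pass. Outside the shifted regions 13 of 39 were lower and 3 higher. Of 10 polyamine genes 8 were lower and 1 higher (median -0.36), among them Odc1 (-0.67), the entry enzyme, and Srm (-0.81).

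Genes of the mTOR pathway and of lysosomes, whose transcription is tied to mTOR through TFEB, were examined because both groups of cells were under the inhibitor. Of 33 lysosome and autophagy genes 23 were higher and 6 lower, with a median of 0.34, and outside the shifted regions 19 of 28 were higher and 5 lower. Wipi1 (1.5), Gabarapl1 (1.04), the protease gene Ctsb (0.82), the glucosidase gene Gaa (0.87) and Tfeb itself (0.98 ± 0.07) were higher, whereas Atg9b (-1.07), Mitf (-0.90, chromosome 6) and Gabarapl2 (-0.55) were lower. Among 29 genes of mTOR signalling 15 were higher and 11 lower, or 14 and 11 of 28 outside the shifted regions. The inhibitors Ddit4 (1.76 ± 0.25; 23.4 against 6.65 TPM) and Sesn2 (1.53 ± 0.16) were higher, the arginine sensor Castor1 was lower (-1.74 ± 0.12), and Mtor differed by -0.13. The call of Mtor was lost without KO replicate 3 or 4, without wild-type replicate 2, 3 or 4, and with replicates 1 and 2 alone (-0.06 to -0.12). Upstream, 7 of 18 genes of the insulin, PI3K and FoxO list were higher and 3 lower, or 7 and 3 of 15 outside the shifted regions. Irs2 (1.24 ± 0.06), Insr (1.14) and Igf1r (0.99) were higher, while Inpp4b had 3 counts in KO against 311 in wild type. Downstream, 5 of 19 genes of cap-dependent translation initiation were higher and 8 lower (median -0.08), or 4 and 7 of 16 outside the shifted regions. The translation inhibitor Eif4ebp1 was higher by 1.17 ± 0.06 and Eif4ebp2, in the lowered stretch of chromosome 10, was lower (-1.12).

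The sterol list differed between paused and normal culture. Sterol and fatty acid synthesis genes were balanced in paused cells, with 10 of 27 higher, 7 lower and a median of 0.01, but 26 of the 27 were higher in normal culture, with a median of 0.82. Outside the shifted regions 9 of 26 were higher and 7 lower in paused cells. The interaction was negative for 26 of the 27, against 24.9% of all autosomal genes. Scd2, a desaturase of chromosome 19, stood at 79.98, 70.6, 78.7 and 71.2 CPM in paused KO cells and at 149, 149, 149 and 143 CPM in paused wild type (-0.97 ± 0.05, edgeR adjusted p = 1.7e-11), while its normal-culture effect was 1.04, so the sign turned (interaction -2.02 ± 0.07). Fasn, the fatty acid synthase, went from 0.40 in normal culture to -0.52 ± 0.04, and Insig1, which holds back sterol synthesis, had an effect of 1.2 in normal culture and did not pass in paused cells (-0.09). Scd1, the paralog of Scd2, was higher in paused KO cells (1.81 ± 0.12).

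In the glycolysis list 12 of 22 genes were lower and 6 higher in paused cells (median -0.20), against a median of 0.49 in normal culture. Outside the shifted regions 11 of 20 were lower and 5 higher in paused cells. Ldha (-1.08 ± 0.14), Eno1 (-0.79), Pkm (-0.61) and the lactate exporter Slc16a3 (-1.28) were lower, whereas the isoforms Ldhb (0.97) and Eno2 (1.61), the phosphofructokinase gene Pfkp (1.48) and the glucose carrier Slc2a3 (1.35) were higher. Pdk1, a kinase that inhibits pyruvate dehydrogenase, had an effect of -0.28 in paused and 1.33 in normal culture (interaction -1.61). Respiratory chain genes were balanced, 12 of 38 higher and 11 lower, with 7 of 32 higher and 11 lower outside the shifted regions. Among p53 targets 10 of 21 were higher and 4 lower (7 and 4 of 18 outside the shifted regions), with Gdf15, a stress-induced secreted factor, at 3.53 ± 0.24.

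**Figure D4:**
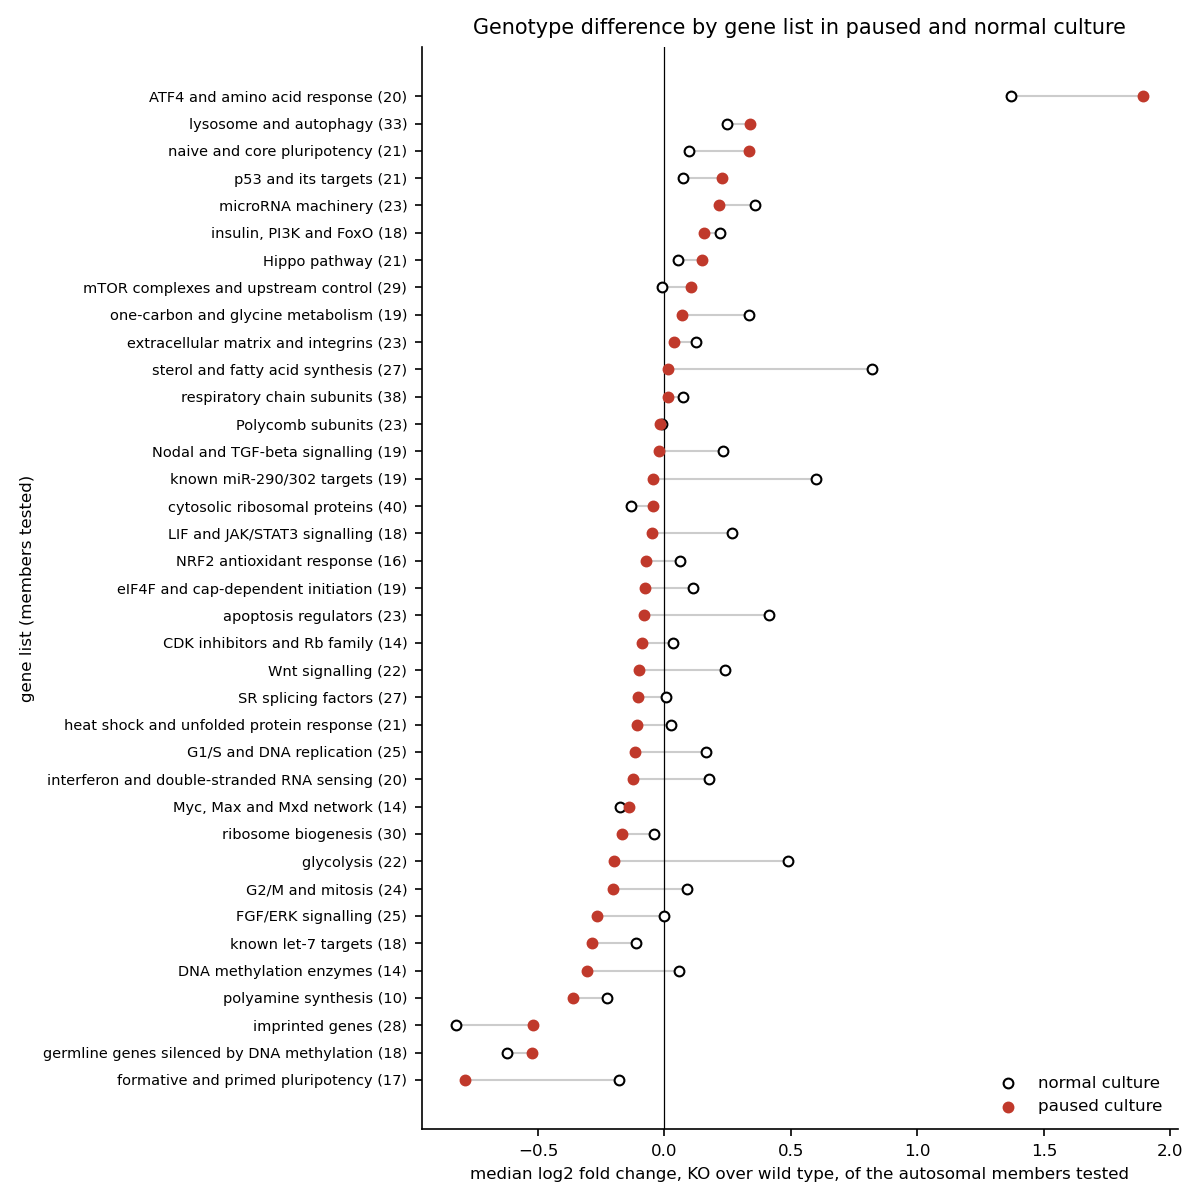
Median log2 fold change of KO against wild type for the autosomal members of each gene list in paused culture (filled red) and in normal culture (open); the 2-cell-like list and the cell type markers are not drawn. The ATF4 list lies farthest to the right in both, at 1.89 and 1.37, and the sterol list moves from 0.82 in normal to 0.01 in paused culture.

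Over all autosomal genes the paused and normal contrasts shared much of their direction without sharing a library. Of the 5690 genes higher in paused KO cells 4193 (73.7%) were also called higher in normal culture, which is 66.4% of the 6311 called higher there, 320 were called lower and 1177 did not pass. Of the 6219 lower genes 4105 (66.0%) were also lower, 653 were higher and 1461 did not pass. The log2 fold changes had a Pearson correlation of 0.827 and a Spearman correlation of 0.680 across 18195 genes, which are not independent replicates. The sign turned for some well-measured genes. Tfap2c, a trophoblast and germ cell factor, had an effect of 0.97 in paused and -1.48 in normal culture (interaction 2.46), and Sox21 of 0.96 and -1.50 (2.46). In the other direction, Khdc3, an oocyte and early embryo gene, had -0.70 and 1.73 (-2.43), and Robo4 -1.32 and 0.92 (-2.24).

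MicroRNAs were not measured, since the libraries hold poly(A) RNA, so only their processing genes and predicted targets could be described. Of 23 genes of microRNA machinery 14 were higher and 5 lower, with a median of 0.22, or 13 and 5 of 22 outside the shifted regions. Drosha did not pass (-0.08 ± 0.05, adjusted p = 0.21 by edgeR). It did pass when refitted on genes at a mean log2 CPM of 3 or above (-0.13, adjusted p = 0.030 by edgeR) and with replicates 3 and 4 alone (-0.10, adjusted p = 0.038). By contrast, the Argonaute gene Ago2 (0.71 ± 0.06), Dicer1 (0.20) and the silencing cofactor Tnrc6c (0.55) were higher, and Ago1 (-0.20) was lower. Of 730 tested autosomal protein-coding genes that hold an annotated microRNA on their strand, 308 were higher (42.2%) and 238 lower (32.6%), with a median of 0.07. Over all autosomal genes tested the shares were 31.3% and 34.2%. Among autosomal protein-coding genes at a mean log2 CPM of 3 or above they were 40.3% and 33.9%. The hosts were taken at any level of expression, so neither set is a matched background.

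The families whose sites were sought are shown by their mature sequences (RefSeq, GRCm38.p6), with the seed, bases 2 to 8, in capitals. The first 3 share the seed AAGUGCU with the miR-302 family, and the next pair has a seed moved by 1 base.
mmu-miR-291a-3p: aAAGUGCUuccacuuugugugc
mmu-miR-294-3p: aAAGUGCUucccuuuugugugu
mmu-miR-302b-3p: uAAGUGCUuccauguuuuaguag
mmu-miR-17-5p: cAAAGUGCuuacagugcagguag
mmu-miR-106b-5p: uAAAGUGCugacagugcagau
mmu-miR-16-5p: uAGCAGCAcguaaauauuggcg
mmu-miR-19a-3p: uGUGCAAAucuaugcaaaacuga
mmu-let-7a-5p: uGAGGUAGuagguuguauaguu

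Some of the listed targets of miR-290 and miR-302 carry the match AGCACTT, the reverse complement of that seed, in their 3′ UTR. It is in capitals in the following 27-base sites, taken from the GRCm38 transcript reference and given on the gene's strand; Lats2, Cdkn1a and Tgfbr2 were higher in KO cells and Lefty1, Lefty2 and Rhoc were lower, so sites of both directions are shown.
Lats2 (chr14:57699587-57699613): ctccgtacccaaAGCACTTgctgctgc
Cdkn1a (chr17:29099816-29099842): tcagacctgaatAGCACTTtggaaaaa
Tgfbr2 (chr9:116087764-116087790): atcaaaacctaaAGCACTTattttcaa
Lefty1 (chr1:180938201-180938227): cactgtatgcgaAGCACTTacatgtat
Lefty2 (chr1:180897905-180897931): tcacccagtttaAGCACTTacatgggt
Rhoc (chr3:104794319-104794345): atattacacaccAGCACTTtatatatt

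Targets of this family were divided in paused cells. Of 19 listed genes 8 were higher and 7 lower, with a median of -0.04, while 14 were higher in normal culture, with a median of 0.60, and none had a positive interaction. Outside the shifted regions 6 of 15 were higher and 5 lower. The death protease gene Casp8 (1.06 ± 0.15, chromosome 1), Slain1 (0.76), Mbd2 (0.60), Tob2 (0.56) and Tgfbr2 (1.38 ± 0.14; 0.915 against 0.330 TPM) were higher. Casp2 (-0.22), the small GTPase gene Rhoc (-0.47), Dkk1 (-1.90) and Nr2f2 (-2.94) were lower, and Rbl2, a pocket protein, did not pass (-0.07). With length-scaled TPM counts the call of Casp2 was lost (-0.13). Casp8, Slain1, Dkk1 and Nr2f2 held no match to the seed in their longest 3′ UTR, nor did Kdm1b and Ireb2 of the list. For Rhoc the normal-culture effect was 0.99 and the interaction -1.46. Of 18 let-7 targets 11 were lower and 4 higher (median -0.29), among them Lin28b (-1.02), Igdcc3 (-1.89) and Ccnd2 (-1.28) lower and Arid3a (0.94) and Igf2bp3 (0.88) higher.

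Across 16068 genes with a 3′ UTR, genes with a match to this seed were slightly higher. By number of matches, the 13245 genes with none had a median log2 fold change of -0.026, the 2310 with 1 match 0.044 and the 513 with more 0.078, and the share called higher was 32.9%, 38.6% and 41.5%. Longer UTRs hold more matches and also had higher medians, -0.074, 0.002 and 0.044 from the shortest to the longest of 3 length classes. Compared within these classes, the 2823 genes with a match differed from those without by 0.036, the same as in normal culture (0.036). The difference was 0.031, 0.044, 0.029 and 0.046 in KO replicates 1 to 4 and 0.001, 0.010, -0.007 and -0.003 in wild type, so the 2 genotypes did not overlap.

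The other families gave values from -0.008 to 0.052 in paused cells. For the miR-17, miR-20 and miR-106 family the difference was 0.052 in paused and 0.082 in normal culture, for miR-19 0.034 and 0.067, for miR-15/16 0.025 and 0.053, for the miR-130 family 0.033 and 0.045, and for let-7 0.040 and 0.049. Smaller values were found for miR-26 (0.018 and 0.028), miR-141 with miR-200a (0.014 and 0.025), miR-30 (0.012 and -0.016), miR-25 with miR-92 (0.004 and 0.019) and miR-200b with miR-200c (-0.008 and -0.033). Families examined for comparison gave 0.021 and -0.005 (miR-1 and miR-206) and 0.002 and -0.020 (miR-9). For miR-1 and miR-206, which are known from muscle, all 4 KO libraries also lay above the wild-type ones. These differences are small beside those of single genes. With the stricter 8-base match alone, the value of miR-290 and miR-302 turned to -0.028, so its sign rests on the kind of match counted, while that of the miR-17 family was then 0.110.

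**Figure D5:**
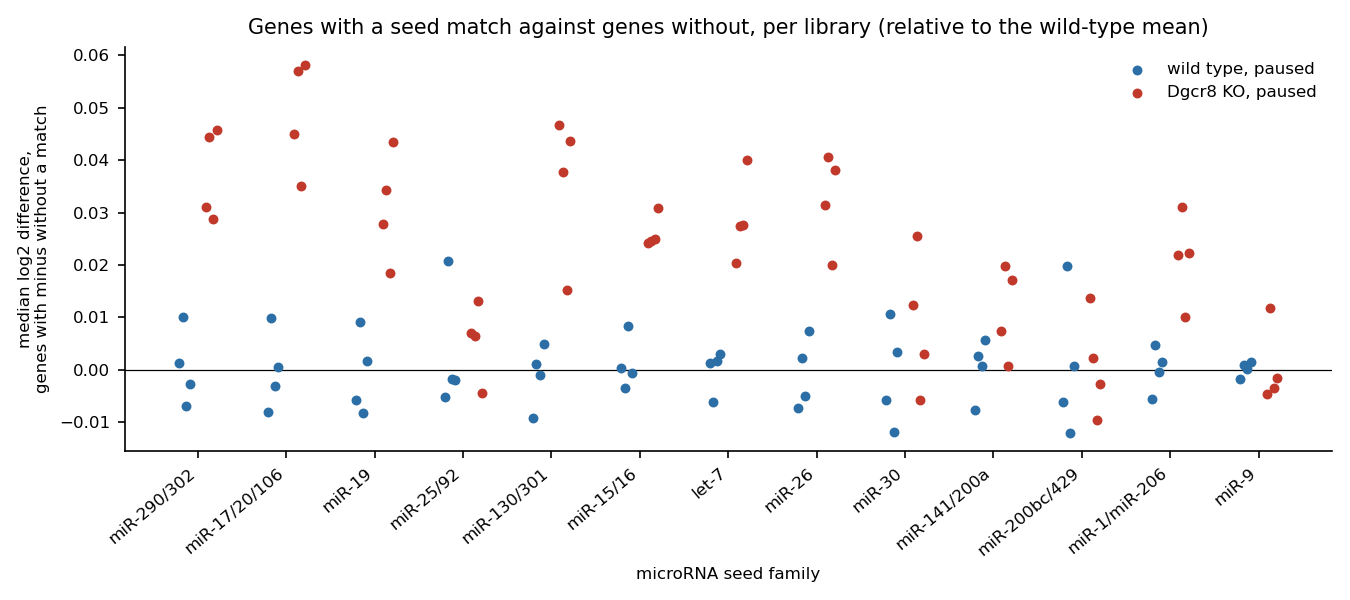
Difference in median log2 level between genes with and without a seed match, within classes of UTR length and relative to the wild-type mean, for each microRNA family and paused library (log2 units; wild type in blue, KO in red). For the miR-290 and miR-302 seed the 4 KO libraries lie at 0.029 to 0.046 and the wild-type ones at -0.007 to 0.010.

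Read per transcript, 21469 of 63391 autosomal transcripts passed (33.9%), 9754 higher (15.4%) and 11715 lower (18.5%). Most followed their gene: of the higher transcripts 8700 belonged to genes that were higher, 310 to genes that were lower and 744 to genes that did not pass, and of the lower ones 9552, 631 and 1532 belonged to genes that were lower, higher and not past. The share of a transcript within its gene changed in 2644 of 7887 autosomal genes that could be examined (33.5%), and by 20 percentage points or more in 178 (2.26%), of which 79 were higher, 76 lower and 23 not past as genes.

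Among the largest changes of share, Pacsin2-202, of a gene for an adaptor of endocytosis, made up 35.4, 36.5, 34.6 and 40.2% of its gene in KO cells and 1.69, 1.62, 3.23 and 1.29% in wild type (adjusted p = 6.0e-07 by limma). Clstn3-201, of a gene for a synaptic cadherin, made up 91.4, 95.6, 96.5 and 94.5% against 39.5, 45.7, 56.3 and 42.7%. For these genes no KO share overlapped a wild-type one. In Hmgxb4 the coding transcript Hmgxb4-202 held 21.2 ± 1.62% in KO and 65.8 ± 1.15% in wild type (SD, n = 4 each), and Hmgxb4-206, annotated as a target of nonsense-mediated decay, 71.3 ± 2.22% and 29.3 ± 0.897%. In Atf5, a factor of the ATF4 response, Atf5-201 held 96.5 ± 0.689% against 81.6 ± 2.68%.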

How the data were processed

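Poly(A) RNA of 16 mouse ESC libraries, 4 per group, was analysed. Per the file headers and the submitters' processing notes, the authors quantified transcripts with kallisto on GRCm38 and deposited estimated counts (expected counts) and TPM per transcript; the kallisto version is not given in the sources used here. Of 118489 transcripts 116816 matched GENCODE M21; the 1673 others, 0.643% to 0.697% of the counts, were left out. Long non-coding RNA genes are not analysed here. Estimated counts were summed over genes and rounded. Effective lengths were used only in an alternative.

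Genes were filtered with filterByExpr (minimum count 10), scaled by TMM (factors 0.933 to 1.07) and tested in R 4.3.3 by edgeR 4.0.16 (quasi-likelihood F test, robust fit) in a single model of all 16 libraries, 1 mean for each of 4 groups. P-values are two-sided and adjusted by Benjamini-Hochberg over all 18965 genes, or 65442 transcripts, at a threshold of 0.05. Fold changes are KO over wild type; SEs are the log2 fold change over the root of F. CPM are scaled by TMM. Transcript shares were tested as log2 odds with limma 3.58.1 in genes with a mean of 100 counts or more and transcripts with a share of 5% or more. Their p-values were adjusted over the transcripts tested in this way. A gene was counted when any of its transcripts passed, so the threshold of 0.05 does not hold per gene. The limma test replaced a planned edgeR splicing test, which did not perform well on simulated data. There the limma test recovered 37.3% of transcripts changed by 1 on the log2 scale and 5.88% of those changed by 0.5. The edgeR test recovered 48% and 24% of changed transcripts, and 95% and 81% of changed genes. Counts of called transcripts and shares are therefore incomplete. Library measures were compared over all 70 divisions of 4 and 4 libraries. Windows of 10 Mb needed 10 protein-coding genes at a mean log2 CPM of 3 or above. Seeds were matched to the longest 3′ UTR, as 7 bases pairing with seed bases 2 to 8. Python 3.11.15 and scipy 1.17.1 were also used.

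The comparison, its 38 gene lists, 6 marker lists and named genes were chosen with earlier results of these data known. Named genes are the 12 largest rises and 12 largest falls among called autosomal coding genes at a mean log2 CPM of 3 or above with no overlap of libraries, the members of each list with the largest changes or that its text turns on, the 6 largest interactions of each sign, the 8 largest changes of transcript share, and genes such as Dgcr8, Drosha, Dicer1, Ago2, Lats2, Cdkn1a, Myc, Nanog, Dnmt3b, Lefty1, Chac1 and Scd2. Not all are described, and some are not reported here. Depth was 88377380 to 116646028 estimated counts in the paused libraries. Alternatives were DESeq2 1.42.0, other scalings and filters, subsets of libraries and a replicate block.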

Additional observations from a re-analysis of the deposited data

Results flagged for a closer look

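For 27 genes with values in every library, the 2 paused groups were searched for a library far from its 3 others, and 3 of 54 groups held one; chance gives about 1 in 20. Trib3 stood at 6.47 CPM in wild-type replicate 1, above the others. Scd2 stood at 143 CPM in wild-type replicate 4, and Esrrb at 1135 CPM in KO replicate 1, each below the others. None of these lies near the other genotype.

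The genotype effect differed between paused and normal culture, by the interaction test of edgeR, for 20 of the 27 genes. On the log2 scale it was more positive in paused culture for Chac1 (2.87), Trib3 (1.89), Mthfd2 (1.87), Stc2 (1.76), Psat1 (1.44), Ddit3 (1.31), Phgdh (1.25), Atf3 (0.99), Pck2 (0.95) and Asns (0.44) of the amino acid response, and for Mycn (1.07), Dnmt3l (1.00) and Nanog (0.41). It was more negative for Lefty2 (-4.45), Lefty1 (-2.94), Scd2 (-2.02), Pou3f1 (-1.63), Myc (-1.13), Gja1 (-0.73) and Dgcr8 (-0.66).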

How the results depend on the processing

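Refitted and rescaled on genes with a mean log2 CPM of 3 or more alone, 7072 were called, 3293 higher and 3779 lower, 366 and 300 by 1 or more. In the main fit, 3702 of the 9176 autosomal coding genes at this level were higher and 3112 lower. Fewer genes were tested in the refit, and the change in balance was not examined for its cause. With a threshold of 10 points, 818 genes changed a transcript share. The 8-base match alone gave -0.028 for miR-290 and miR-302 and 0.110 for the miR-17 family, and UTRs of the most abundant transcript gave 0.0745 for the latter; the cause was not tested. Leaving out 1 library at a time gave 11330 to 11641 genes called, 5394 to 5609 higher, 5831 to 6049 lower, 1172 to 1264 higher and 2084 to 2149 lower by 1 or more, 18817 to 19735 transcripts, 2198 to 2371 genes with a changed share, 172 to 193 of them by 20 points, 0.0304 to 0.0437 for miR-290 and miR-302 and 0.0454 to 0.0519 for the miR-17 family. Other settings kept the count of called genes between 10693 (outside the shifted regions, chosen after seeing the data) and 12178 (paused libraries alone). Of 3532 values of 199 named genes under 18 settings, 3507 kept their side of the threshold and none reversed. Plk2 and Mtor lost theirs most often, and Mycn passed with replicates 1 and 2 alone (0.24). Same-numbered libraries of the 2 genotypes deviated with correlations of -0.037, 0.377, 0.390 and 0.031, and differently numbered ones with -0.450 to 0.111. These values do not settle whether the numbers pair libraries, and the main fit did not pair them. With the replicate block 11969 genes, 20921 transcripts and 2506 genes with a changed share were called. The planned limma voom diffSplice alternative was not run on the deposited data.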
